A study of Homo sapiens with 20 samples.

Results

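Cells heated by laser at 54 °C were compared with cells heated by laser at 46 °C, across all genes of the deposited count table. The 8 samples compared, 4 at each temperature, were taken by their labelled temperature from the 20 samples of the series. Of the 36601 genes in the table, 12149 passed the filter on low counts and were tested. All samples are of MDA-MB-231, an established breast cancer cell line of human origin and of the basal, mesenchymal type. Cells of all 5 groups were seeded at 30000 per well and cultured for 24 h at 37 °C. The wells of both heated groups then held biomimetic nanoparticles for 4 h, at 0.1 mg/ml in 200 µl of medium, and each well was lit for 10 min with an 808 nm continuous-wave laser set to 46 °C or 54 °C. Each RNA sample pooled 2 wells. The time from laser to lysis is not given in the sources used here. Samples with nanoparticles and no laser, samples lit at 50 °C and untreated samples, 4 each, are used below only as levels set beside the comparison and in the estimate of spread. With no group lit in the absence of nanoparticles among those analysed here, heat cannot be told apart from light. The series title places the experiment in controlled photothermal therapy, and the comparison asks how the hottest setting differed from the mildest.

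Heat that unfolds proteins frees the transcription factor HSF1, which binds heat shock elements, inverted repeats of the bases GAA, in the promoters of chaperone genes. HSP70 proteins and their HSP40 partners hold unfolded chains, HSP110 proteins exchange the nucleotide of HSP70, and HSP90 finishes the folding of kinases and receptors. Immediate-early genes such as FOS, JUN and EGR1 are switched on within minutes of stress or growth signals, through kinases that act on SRF and related factors, and their mRNAs are short-lived. Both programmes need cells that can still transcribe, and the mRNAs of the mitochondrial genome are made by a separate polymerase inside the organelle.

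Expression was read by QuantSeq, which sequences the 3' ends of polyadenylated mRNAs. Library totals ran from 2401180 to 3245482 estimated counts at 46 °C and from 6154155 to 7710977 at 54 °C, so the hotter libraries were deeper in every case. With every library thinned to the smallest total, 12870 to 13552 genes had a count at 46 °C and 12517 to 13555 at 54 °C. Levels below are CPM, counts scaled to library size with TMM factors, and differences are log2 fold changes, 54 °C minus 46 °C, with the standard error of the fit and 4 samples per group. The 10 markers of MDA-MB-231 (VIM, CD44, AXL and others) summed to 3635 to 4804 CPM at 46 °C and 4319 to 4818 CPM at 54 °C, with SPARC at 0 in the 46 °C libraries. The 12 luminal breast markers summed to 141.4 to 224.3 CPM and 162.3 to 192.1 CPM, mostly KRT19 and XBP1, with PGR, FOXA1 and AGR2 at 0 in all 8 libraries. Macrophage, lymphocyte, blood and fibroblast markers summed to at most 19.19 CPM in any of the 8 libraries, and no tested marker was called.

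Between the temperatures, edgeR's quasi-likelihood test called 68 genes higher (0.56% of tested genes) and 92 lower (0.757%) at 54 °C, at a Benjamini-Hochberg adjusted p under 0.05. At least 2-fold differences were found for 24 of the higher and 30 of the lower genes. The median difference over all tested genes was −0.0008 on the log2 scale. The 4 values at 54 °C lay wholly above the 4 at 46 °C for 326 genes (2.68%) and wholly below them for 370 (3.05%). That separation held for 55 of the genes called higher and 71 of those called lower, while 34 called genes had overlapping values. Scaled by library totals in place of TMM, 48 genes were called higher and 213 lower, so that 18.4% of the calls were higher, against 42.5% with TMM. The median of all genes then stood at −0.082. With the 54 °C libraries thinned to the mean depth at 46 °C, 68 genes were called higher and 88 lower. In these bulk samples, fewer cells that hold an mRNA and less of it per cell cannot be told apart.

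**Figure D1:**
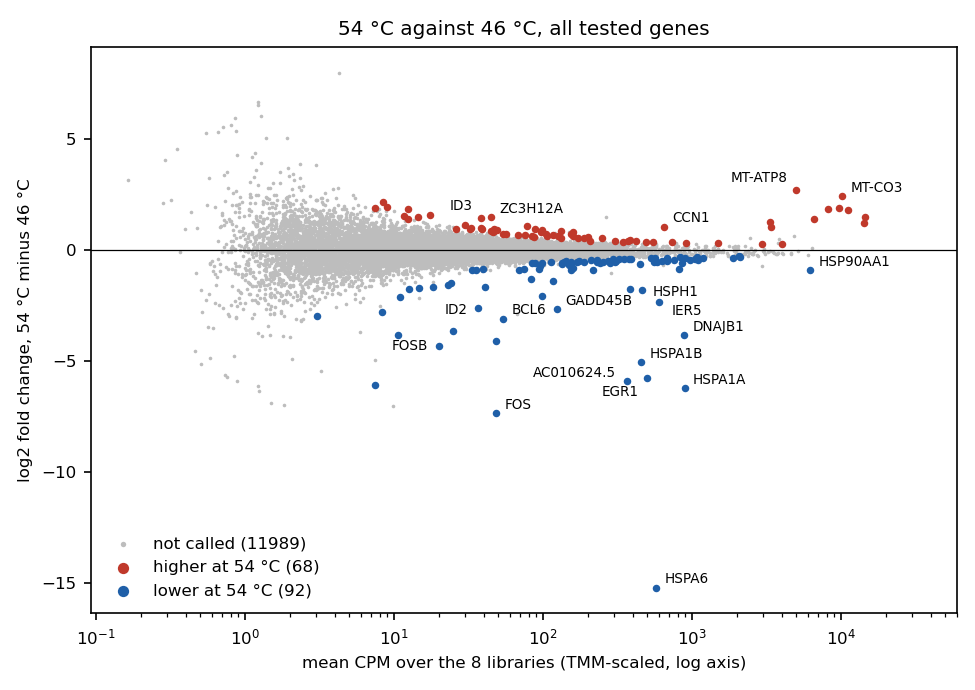
Log2 fold change of each tested gene (54 °C minus 46 °C, vertical axis) against its mean level over the 8 libraries (CPM, log axis). Red points are the 68 genes called higher, blue points the 92 called lower and grey points the rest. HSPA6, at 0 counts in all 54 °C libraries, has a fitted value of −15.21 that is no measure of size, and most red points at the far right are mitochondrial mRNAs.

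The lower genes were mostly genes that stood high at 46 °C. For 84 of the 92 the 46 °C mean lay above all 4 libraries with nanoparticles alone, and for 57 of them the 54 °C mean lay inside the range of those libraries. In 12 genes, HSPH1, JUN and LINC00324 among them, the 54 °C mean was still above that range, and in 15, such as DNAJB1 and HSP90AA1, it was below. Only BCL6 and AC007381.2 among the 92 were inside the range at 46 °C and below it at 54 °C. Of the 68 higher genes, 51 had a 46 °C mean below the nanoparticle-alone range, and 30 of these were inside it at 54 °C. The 54 °C mean lay above the range for 32 of the 68, and 18 of these had been below it at 46 °C. Over all tested genes, 67.5% had a 46 °C mean inside the range and 74.0% a 54 °C mean inside it. Of these 12149 genes, 2235 had a 46 °C mean above the range. At 54 °C, 1182 of the 2235 were inside it, 953 above it and 100 below it. The 46 °C mean was below the range for 1711, and 946 of these were inside it and 94 above it at 54 °C. A mean inside the range at 46 °C and below it at 54 °C was found for 526. The 54 °C mean was above it for 1867 and below it for 1297. These are positions of levels, with no test. The genes were called from the same 46 °C and 54 °C libraries, so their positions at either temperature are partly set by that choice.

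The inducible HSP70 chaperones were among the genes with the largest falls. HSPA6, an HSP70 gene expressed almost only under stress (ENSG00000173110, chromosome 1, 161524540 to 161526910, a single-exon gene), had 871.4, 1178, 818.1 and 1701 CPM in the 46 °C replicates 1 to 4. It had no count in any of the 4 libraries at 54 °C. The difference was thus at least 2528-fold lower at 54 °C (log2 of 11.3), taking 3 counts per library as the limit that a count of 0 allows. Nanoparticle-alone libraries held 0 to 2.406 CPM and 50 °C libraries 0 to 4.279 CPM. The adjusted p was 1.02e-06 in edgeR's test over the 20 samples and 0.0748 when only the 8 heated samples were fitted, where the call was lost. Reads shared with its close relative HSPA7 could be split between them.

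HSPA1A and HSPA1B encode the major stress-inducible HSP70 protein from neighbouring, near-identical copies on chromosome 6, so the split of reads between them is uncertain. HSPA1A had 1538, 1711, 1558 and 2234 CPM at 46 °C and 25.16, 17.63, 29.76 and 21.14 CPM at 54 °C. HSPA1B had 667.6 to 1054 CPM at 46 °C and 17.01 to 40.22 CPM at 54 °C. Neither gene's values overlapped between the temperatures, and the 54 °C levels lay near those with nanoparticles alone (28.62 ± 7.94 and 34.4 ± 7.56 CPM, SD). The summed level of the pair fell from 2642 ± 486 CPM to 51.0 ± 13.4 CPM (SD, n = 4). In the fit, HSPA1A fell by 6.23 ± 0.29 (adjusted p = 3.41e-09, edgeR) and HSPA1B fell by 5.04 ± 0.17 (adjusted p = 1.22e-32).

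HSPH1, the stress-inducible HSP110, had 566.1, 763.2, 681.7 and 881.2 CPM at 46 °C and 202.3, 212.8, 230.7 and 174.8 CPM at 54 °C, and fell by 1.81 ± 0.13 (adjusted p = 2.94e-17, edgeR). HSPA8, the constitutive cytosolic HSP70, had 1301 ± 126 CPM and 1236 ± 302 CPM (SD), with a difference of −0.10 ± 0.08 and a 95% interval from −0.27 to 0.06. HSPA4, a constitutive HSP110, was at 234.8 and 234.1 CPM. So the 4 that fell, of 11 entries in the list, were the stress-inducible ones, and the median of the list was −0.42.

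The promoters of the 4 chaperone genes with the largest falls are shown for their heat shock elements, with the gene start to the right of each stretch. Sequences are from RefSeq on GRCh38.p14, from the window of 250 bases before to 50 after the gene start. Capitals mark the motif GAANNTTC or TTCNNGAA, an inverted pair of GAA units found on both strands, and joined capitals are overlapping matches. The DNAJB1 stretch lies within the gene span of GENCODE v29, which holds longer transcripts, and the other 3 lie upstream of their genes.
HSPA6 (chr1:161524350-161524488, + strand): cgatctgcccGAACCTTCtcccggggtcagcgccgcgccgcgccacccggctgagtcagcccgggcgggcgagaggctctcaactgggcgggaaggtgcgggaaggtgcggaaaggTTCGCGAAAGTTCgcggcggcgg
HSPA1A (chr6:31815427-31815454, + strand): gaaaaccctgGAATATTCccgacctggc
HSPA1B (chr6:31827623-31827650, + strand): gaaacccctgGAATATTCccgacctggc
DNAJB1 (chr19:14518427-14518484, − strand): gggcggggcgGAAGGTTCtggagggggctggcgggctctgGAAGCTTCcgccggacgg
The longer form GAANNTTCNNGAA, or TTCNNGAANNTTC on the other strand, was in 4 of the 75 promoters found for the 92 lower genes (5.33%), those of HSPA6, HSP90AA1, DNAJA1 and HSPD1. It was in 45 of 9724 promoters of tested genes (0.463%) and in 172 of all 35116 RefSeq promoters (0.49%). The shorter motif shown in capitals, which every longer match contains, was in 18 of the 75 (24.0%), against 13.5% of all 35116. Of the higher genes, 45 of 68 had a promoter in the table, and 10 of these (22.2%) held the shorter motif and 0 the longer. Promoters were found for fewer of the higher genes, so their shares are not compared with those of the lower genes. The shorter motif is not read as particular to either set. A match is a run of letters, not a measured binding site.

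Among the HSP40 partners, DNAJB1, the main HSP40 of the heat shock response (chromosome 19, minus strand), had 1391, 1845, 1304 and 2042 CPM at 46 °C and 124.6, 92.84, 119.4 and 128 CPM at 54 °C. All 54 °C libraries were more than 10 times below the lowest 46 °C library, and DNAJB1 fell by 3.83 ± 0.13 (adjusted p = 1.22e-32, edgeR). DNAJA1, a constitutive HSP40, fell from 340.8 ± 44.3 to 225.3 ± 18.7 CPM (SD), by 0.59 ± 0.11 (adjusted p = 2.64e-04). DNAJB4, with 22.72 to 35.8 CPM at 46 °C and 8.498 to 11.82 CPM at 54 °C, was just outside the threshold (adjusted p = 0.0504). The other 12 tested HSP40 genes were not called, and the median of the 15 was −0.03.

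HSP90AA1, the inducible HSP90, was among the most abundant nuclear mRNAs. It had 7507, 8707, 7063 and 8973 CPM at 46 °C and 4418, 4287, 4150 and 4258 CPM at 54 °C, and fell by 0.91 ± 0.07 (adjusted p = 1.83e-18, edgeR). The constitutive HSP90AB1 had 3322 ± 341 and 2894 ± 173 CPM (SD), a difference of −0.20 ± 0.07 (adjusted p = 0.232). Of the 13 HSP90 and co-chaperone genes, 2 fell, the other being CACYBP, an adaptor of a ubiquitin ligase, by 0.50 ± 0.11 (adjusted p = 0.00174). Their median was −0.13.

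In the list of HSF1 targets, small heat shock proteins and ubiquitin genes, the largest fall was that of IER5, a nuclear protein that activates HSF1. That list does not hold HSPA6, HSPA1A, HSPA1B or DNAJB1, which fell more. IER5 is described first. It had 914, 1112, 782 and 1186 CPM at 46 °C and 166.9, 182.8, 232.7 and 200.8 CPM at 54 °C, and fell by 2.36 ± 0.11 (adjusted p = 2.53e-31, edgeR). HSPB1, the small heat shock protein HSP27, fell by 0.64 ± 0.10, from 545.8 ± 56.4 to 352.2 ± 45.9 CPM (SD). BAG3, which links HSP70 to autophagy, had 62.47, 97.86, 85.8 and 113.3 CPM at 46 °C and 40.78 to 55.11 CPM at 54 °C, and fell by 0.89 ± 0.20 (adjusted p = 0.00543). The call for BAG3 was lost without 46 °C replicate 2 or without 46 °C replicate 4 (adjusted p up to 0.0598). In this list of 16 HSF1 targets, small heat shock proteins and ubiquitin genes, 3 fell and 0 rose, with a median of −0.28. The count of 3 was 5 without 54 °C replicate 4 and 5 with library totals. It was 2 without 46 °C replicate 2 or 4 and 2 within replicates 1 and 2.

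The mitochondrial chaperonin pair moved less. HSPD1, which encodes HSP60, fell by 0.58 ± 0.09 (1034 ± 106 to 687.9 ± 29.3 CPM, SD) and its partner HSPE1 fell by 0.54 ± 0.10 (adjusted p = 3.41e-04, edgeR). For HSPE1 the difference was −0.82 within replicates 1 and 2 and −0.27 within replicates 3 and 4. Its call was lost within replicates 3 and 4 (adjusted p = 0.574, edgeR) and with no term for the replicate pair (adjusted p = 0.421). None of the other 15 mitochondrial and cytosolic chaperonin genes was called, and the list median was 0.02. Outside the cytosolic heat shock families, 0 of 19 endoplasmic reticulum chaperone and unfolded-protein-response genes were called by edgeR, and 0 of 31 proteasome subunits, with medians of 0.006 in both lists. At an unadjusted p under 0.05 there were 3 and 7. Over all alternatives, DESeq2 and limma-voom included, 0 to 2 genes of the first list were called lower and 0 to 1 of the second higher.

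**Figure D2:**
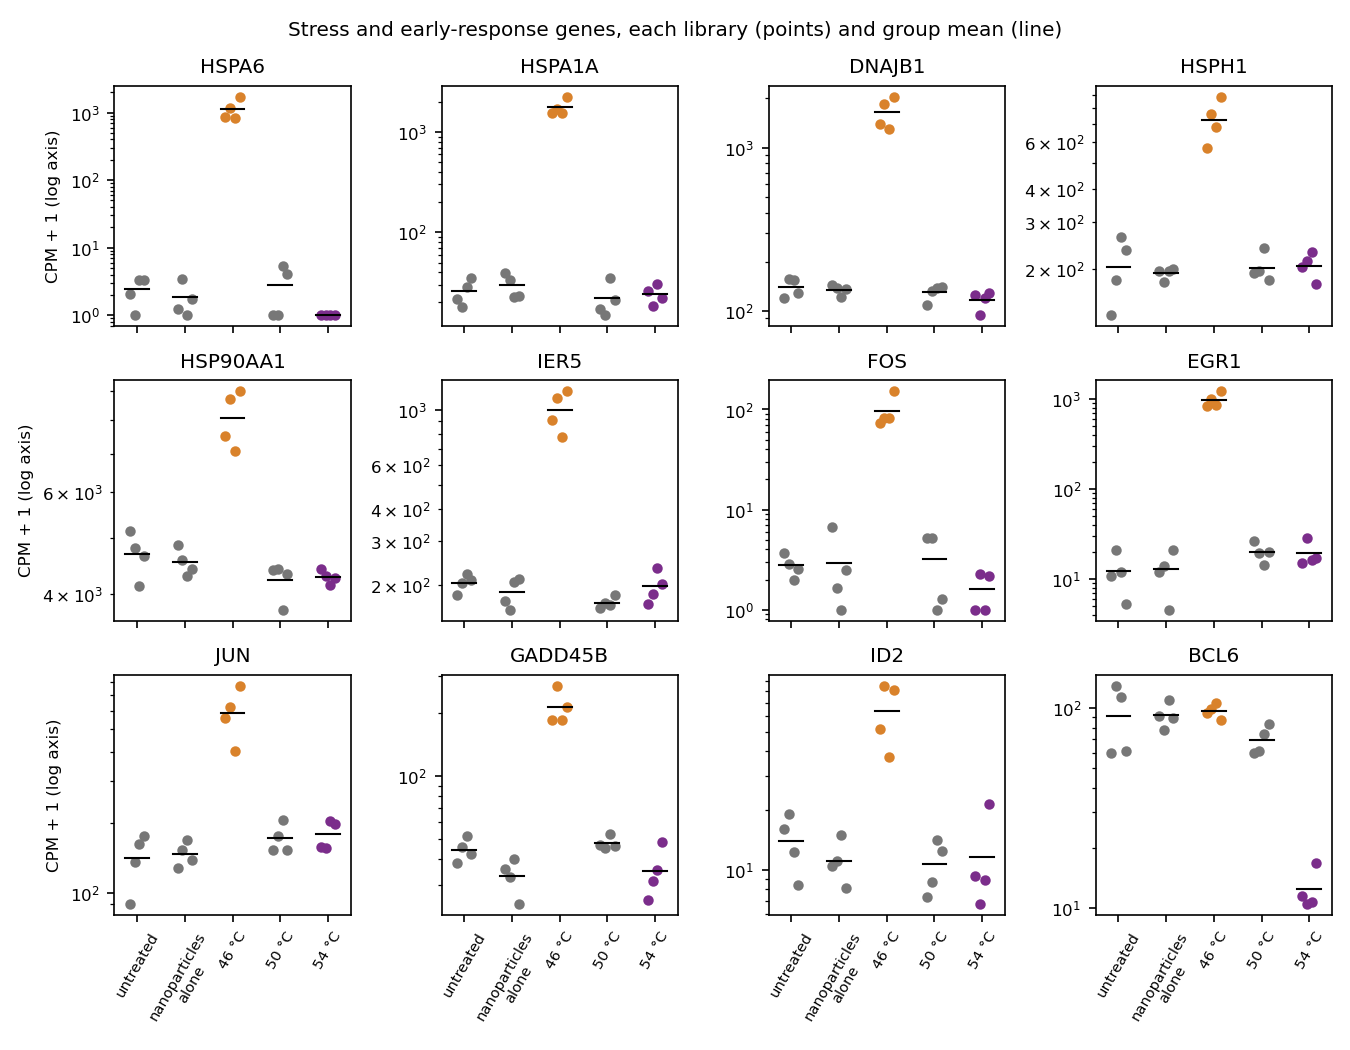
Level of 12 genes (CPM + 1, log axes that differ between panels) in each library of the 5 groups, with a line at the group mean. In the first 11 panels the 46 °C libraries (orange) stand above all 4 libraries of every other group, and in the BCL6 panel the 54 °C libraries (purple) stand below all others.

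Immediate-early genes formed the next large group of falls. FOS, a subunit of the transcription factor AP-1, had 71.44, 80.55, 81.1 and 150.5 CPM at 46 °C, with replicate 4 far above the rest. At 54 °C it had no count in replicates 1 and 3 and 1.268 and 1.165 CPM in replicates 2 and 4. It fell by 7.36 ± 0.98 (adjusted p = 6e-04, edgeR). EGR1, a zinc-finger transcription factor (chromosome 5, 138465490 to 138469315), had 846.4, 994.4, 859.2 and 1215 CPM at 46 °C and 13.96, 27.65, 15.37 and 16.15 CPM at 54 °C. No value overlapped, and EGR1 fell by 5.75 ± 0.38 (adjusted p = 2.86e-07). With nanoparticles alone EGR1 stood at 11.9 ± 6.72 CPM (SD). Its promoter is shown for its CArG boxes, the sites of the form CC, 6 A or T bases, GG that SRF binds, in capitals.
EGR1 (chr5:138465364-138465415, + strand): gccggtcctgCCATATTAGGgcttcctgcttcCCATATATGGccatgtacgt
A CArG box was found in 2 of the 75 promoters of lower genes (2.67%), those of EGR1 and SRF, and in 1.62% of the promoters of tested genes. It was in 3 of the 45 promoters found for higher genes (6.67%), those of ACTG1, GARS and ACTN1, an actin crosslinker.

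FOSB, a FOS paralogue, fell by 4.33 ± 0.70, from 22.72 to 49.18 CPM at 46 °C to 1.018 to 2.616 CPM at 54 °C. JUN, the AP-1 partner of FOS, had 558.7, 622.7, 404.3 and 765.9 CPM at 46 °C and 156.6, 155.1, 202.4 and 196.9 CPM at 54 °C, and fell by 1.74 ± 0.16 (adjusted p = 4.13e-09, edgeR). JUNB fell by 1.30 ± 0.19 and IER2, a nuclear early-response protein, by 0.81 ± 0.14. SRF itself fell by 0.59 ± 0.13, and MCL1, an anti-apoptotic BCL2 protein with a short-lived mRNA, fell by 0.58 ± 0.12. ATF3 (adjusted p = 0.0458) and DUSP1, a phosphatase of stress kinases (adjusted p = 0.0426), were called at 18.5 and 27.5 CPM at 46 °C but lost the call without any of several libraries. For ATF3 these were 46 °C replicates 1, 2 and 4 and 54 °C replicates 2, 3 and 4, and for DUSP1 46 °C replicates 2, 3 and 4 and 54 °C replicates 1, 2 and 3.

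Of 35 tested immediate-early genes 12 fell and 1 rose, with a median of −0.52. The member that rose was CCN1, a secreted matricellular protein that YAP and SRF induce. It had 385.4, 423.7, 456 and 426 CPM at 46 °C and 853.3, 838.5, 903.4 and 912.1 CPM at 54 °C, and rose by 1.05 ± 0.09 (adjusted p = 1.48e-15, edgeR). With nanoparticles alone CCN1 had 572.4 ± 45.8 CPM (SD), between the heated groups. CCN2, its close relative, went the other way, from 223.7 ± 60.2 to 151.8 ± 15.6 CPM (SD), and fell by 0.52 ± 0.13 (adjusted p = 0.0115), a call lost without 46 °C replicate 4 or 54 °C replicate 3. Among members not called, KLF6 and IER3 had differences of 0.06 and 0.07. The count of 12 was 8 with no term for the replicate pair, 8 with DESeq2 and 8 without 46 °C replicate 4 or 54 °C replicate 3.

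Among growth-arrest and feedback regulators, GADD45B, a stress-induced activator of p38 kinase signalling, had 185.2, 268.8, 183.4 and 213.7 CPM at 46 °C and 24.57, 30.44, 34.66 and 47.11 CPM at 54 °C. It fell by 2.65 ± 0.19 (adjusted p = 1.29e-20, edgeR) and was the 1 gene called of 14 p53 and growth-arrest genes. RGS2, an inhibitor of G-protein signalling, fell by 3.63 ± 0.57, from 46.3 ± 11.3 to 3.68 ± 1.49 CPM (SD). RASD1, a small GTPase induced by glucocorticoids, fell by 3.81 ± 0.83 at 10.97 to 26.64 CPM at 46 °C and 0 to 4.566 CPM at 54 °C. For RASD1 the difference was −3.10 within replicates 1 and 2 (adjusted p = 0.187) and −5.42 within replicates 3 and 4 (adjusted p = 0.0214).

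PPP1R15A, which encodes the phosphatase subunit GADD34 that restarts translation after stress, had 251.5 to 301.4 CPM at 46 °C and 115.5 to 181.9 CPM at 54 °C, and fell by 0.88 ± 0.13 (adjusted p = 8.97e-07, edgeR). It was the only member of the 19 integrated-stress-response genes to fall. GARS, a glycyl-tRNA synthetase, rose by 0.55 ± 0.12 (adjusted p = 0.0036) with overlapping values (105.4 to 202.7 CPM and 166.9 to 268.2 CPM), and its call was lost with no term for the replicate pair. SLC7A5, an amino acid transporter, rose by 0.54 ± 0.14 (adjusted p = 0.0346), a call lost with library totals and without 46 °C replicates 1, 2 or 3 or 54 °C replicates 1 or 4. DDIT3, which encodes the stress factor CHOP, had a difference of −0.07 ± 0.42 at 12.7 and 12.4 CPM.

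The ID genes, whose products block helix-loop-helix transcription factors by pairing with them, split by member. ID2 had 50.3, 84.13, 36.05 and 79.75 CPM at 46 °C and 8.289, 5.707, 7.848 and 20.48 CPM at 54 °C, and fell by 2.60 ± 0.35 (adjusted p = 8.05e-08, edgeR). ID1 had 38.12, 65.93, 40.35 and 53.83 CPM at 46 °C and 128.1, 116.6, 95.81 and 85.06 CPM at 54 °C, and rose by 1.09 ± 0.16 (adjusted p = 5.88e-07). ID3 rose by 1.44 ± 0.22, from 20.4 ± 6.58 to 55.6 ± 9.60 CPM (SD). None of the 3 genes overlapped between the temperatures. At 54 °C each stood closer to its nanoparticle-alone level (10.2, 145.3 and 66.7 CPM for ID2, ID1 and ID3) than at 46 °C. The other 7 tested BMP and TGF-beta targets were not called, and the list median was −0.15.

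In the NF-kB list, 3 of 23 genes rose and 1 fell, with a median of −0.08. NFKBIA, the inhibitor IkB-alpha, had 74, 41.47, 80.71 and 78.42 CPM at 46 °C, with replicate 2 low, and 139, 107.4, 117.4 and 144.5 CPM at 54 °C. It rose by 0.89 ± 0.15 (adjusted p = 3.06e-05, edgeR). NFKBIZ, a nuclear IkB protein, had 18.26, 7.459, 6.269 and 4.32 CPM at 46 °C and 31.55, 21.05, 24.85 and 24.97 CPM at 54 °C, and rose by 1.56 ± 0.39 (adjusted p = 0.0158). That call was lost without 46 °C replicates 2, 3 or 4 or 54 °C replicates 1 or 3. CSF3, the granulocyte growth factor, rose by 1.86 ± 0.47 with values that split by replicate at 46 °C: 12.17 and 12.23 CPM in replicates 1 and 2 and 1.959 and 0.9968 CPM in replicates 3 and 4. Its call was lost without 46 °C replicates 3 or 4 or 54 °C replicates 2 or 4.

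CXCL8, the neutrophil chemokine interleukin-8, fell by 0.66 ± 0.14 (adjusted p = 0.00268, edgeR). Its values overlapped across pairs (210.2, 270, 105.4 and 148.9 CPM at 46 °C and 135.7, 147.8, 80.28 and 92.39 CPM at 54 °C), and with no term for the replicate pair the adjusted p was 0.664. ZC3H12A, the RNase Regnase-1 that degrades cytokine mRNAs, had 16.98, 31.03, 28.99 and 16.95 CPM at 46 °C and 69.22, 61.64, 59.68 and 72.58 CPM at 54 °C. It rose by 1.49 ± 0.22 (adjusted p = 1.54e-06), with 31.0 ± 6.10 CPM (SD) with nanoparticles alone.

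YAP and SRF targets of the cytoskeleton moved in both directions, 3 of 19 higher and 2 lower, with a median of 0.06. ANKRD1, a YAP target, fell by 0.87 ± 0.10 (adjusted p = 1.99e-09, edgeR). It had 1176, 1454, 760.9 and 845.3 CPM at 46 °C and 791.9, 704.7, 421.2 and 424 CPM at 54 °C, so values overlapped between the pairs of replicates and not within them. With no term for the pair the adjusted p was 0.3. ACTB and ACTG1, the cytoplasmic actins, rose by 0.33 ± 0.08 (adjusted p = 0.00877) and 0.28 ± 0.07 (adjusted p = 0.0248), and both calls were lost with library totals. The ACTB call was also lost without 46 °C replicate 1, and that of ACTG1 without 46 °C replicates 2 or 3 or 54 °C replicates 1 or 3.

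A pair of genes differed from the stress genes in their level without laser. BCL6, a transcriptional repressor of the zinc-finger class (chromosome 3, 187721377 to 187745727), had 93.54, 98.16, 105.4 and 86.73 CPM at 46 °C. At 54 °C it had 10.47, 9.385, 9.647 and 15.81 CPM, with replicate 4 above the other 3. BCL6 fell by 3.09 ± 0.21 (adjusted p = 1.29e-20, edgeR). With nanoparticles alone it stood at 91.2 ± 13.3 CPM and at 50 °C at 68.5 ± 11.2 CPM (SD), so the 54 °C libraries were the low ones. AC007381.2, a transcript with no entry in the GENCODE v29 annotation, had 74.83 to 102.3 CPM at 46 °C, 1.522 to 10.49 CPM at 54 °C and 92.1 ± 19.2 CPM with nanoparticles alone, and fell by 4.10 ± 0.36 (adjusted p = 4.42e-07). Among 26 short-lived mRNAs of zinc-finger and other regulators, BCL6 was the only gene called, and the list median was −0.09. BCL6 was chosen after its values were seen.

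Long noncoding RNAs, and a transcript with no type given here, fell and rose. That transcript, AC010624.5, is also without an entry in GENCODE v29. It had 556.1, 741.7, 845.5 and 712.4 CPM at 46 °C and 6.834, 9.512, 18.97 and 13.48 CPM at 54 °C, and fell by 5.90 ± 0.53 (adjusted p = 7.59e-06, edgeR). At 50 °C it had 32.27 to 117 CPM. LINC00324 (chromosome 17) had 129.8 to 182 CPM at 46 °C and 22.96 to 49.22 CPM at 54 °C, and fell by 2.07 ± 0.31 (adjusted p = 0.00173). Its level was 10.1 ± 2.38 CPM with nanoparticles alone and 259.5 ± 52.1 CPM at 50 °C (SD), so its highest level was at 50 °C. KCNQ1OT1, an imprinting RNA antisense to KCNQ1, fell by 1.65 ± 0.29, from 62.1 ± 21.0 to 19.8 ± 3.97 CPM (SD). The strand setting of the counting is not known, so reads of antisense partners may be shared.

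NEAT1, the scaffold of nuclear paraspeckles, had 99.63, 105.9, 79.53 and 92.71 CPM at 46 °C and 124, 214.5, 167.6 and 168.6 CPM at 54 °C. It rose by 0.84 ± 0.18 (adjusted p = 0.0021, edgeR), and both heated groups stood above the 41.0 ± 5.95 CPM with nanoparticles alone. MALAT1, a nuclear RNA of speckles, had 3331 ± 542 and 4183 ± 546 CPM (SD), with a difference of 0.32 ± 0.14 (adjusted p = 0.404). FTX rose by 1.48 ± 0.41 (adjusted p = 0.0417), a call lost without any of 6 libraries, which were 46 °C replicates 1, 3 and 4 and 54 °C replicates 1, 2 and 3. Of 12 nuclear long noncoding RNAs 2 rose and 1 fell, with a median of 0.21. In the list of 30 small-RNA host transcripts 2 rose and 1, LINC00324, fell. GENCODE v29 places no small RNA within the span of LINC00324 on its strand, so it is a host by the list only. TAF1D, a host of small nucleolar RNAs, rose by 0.44 ± 0.10 (adjusted p = 0.0081), a call lost without 46 °C replicate 3 or 54 °C replicate 3. The other host that rose was CSKMT, by 0.95 ± 0.24 (adjusted p = 0.0219), with 12.96 to 19.98 CPM at 46 °C and 20.65 to 48.07 CPM at 54 °C. The CSKMT difference was 0.18 within replicates 1 and 2 and 1.55 within replicates 3 and 4. Its call was lost without 46 °C replicates 1 or 4 or 54 °C replicates 3 or 4. The call was also lost with the 8 samples alone, with limma-voom and with thinned 54 °C libraries. At 50 °C CSKMT had 175.8 ± 20.1 CPM (SD), so its highest level was at 50 °C. RMRP, a small noncoding RNA of mitochondrial and ribosomal RNA processing, had 55.5 ± 4.24 and 32.3 ± 18.6 CPM (SD), against 1.41 ± 1.87 CPM with nanoparticles alone, and a difference of −0.89 ± 0.63 (adjusted p = 0.699).

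The mRNAs encoded by the mitochondrial genome made up the largest group of rises. They took 4.945% ± 0.524 of all counts at 46 °C (range 4.499 to 5.6) and 13.85% ± 0.882 at 54 °C (range 12.72 to 14.68; SD, n = 4). With nanoparticles alone the share was 11.98% ± 0.629 (range 11.07 to 12.51), and at 50 °C it was 17.01% ± 1.95. The 46 °C libraries were thus the low ones, and the 54 °C libraries all stood above those with nanoparticles alone. The part of this share in the differences of other genes was not tested. Of the 13 mRNAs 10 rose and 0 fell, and their median was 1.40, or 1.32 with library totals. Within replicates 1 and 2, 9 were called higher and 1, MT-ND6, lower. With the 8 samples alone 12 were called higher, MT-CO1 and MT-ND4L included. For 12 of the 13 no 54 °C value overlapped a 46 °C value. The largest rises were those of MT-ATP8 and MT-ATP6, of ATP synthase, and MT-CO3 and MT-CO2, of cytochrome c oxidase. MT-CO1, another subunit of the oxidase, was not called.

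MT-CO3, a subunit of cytochrome c oxidase (mitochondrial genome, 9207 to 9990), had 2701, 3492, 2710 and 3741 CPM at 46 °C and 17010, 15950, 17300 and 18070 CPM at 54 °C. It rose by 2.43 ± 0.14 (adjusted p = 5.26e-08, edgeR). MT-ATP8, a small ATP synthase subunit, had 1118, 1206, 1379 and 1645 CPM at 46 °C and 10020, 6885, 9058 and 8551 CPM at 54 °C, and rose by 2.70 ± 0.16 (adjusted p = 8.05e-08). MT-ATP8 overlaps MT-ATP6 at its 3' end, so reads there could be split between them. MT-CO2 rose by 1.90 ± 0.12 and MT-ATP6 by 1.83 ± 0.17. At 54 °C, MT-ATP8 stood above its nanoparticle-alone level of 5097 ± 646 CPM and MT-CO3 above 12920 ± 458 CPM (SD). The 54 °C mean lay above the nanoparticle-alone range for every called mitochondrial mRNA but MT-ND3, which was inside it.

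Of the 7 complex I subunits, MT-ND3 rose by 1.79 ± 0.16, MT-ND2 by 1.48 ± 0.13, MT-ND1 by 1.40 ± 0.19, MT-ND4 by 1.22 ± 0.17 and MT-ND5 by 1.03 ± 0.22. The call for MT-ND5 (adjusted p = 0.0316, edgeR) was lost without 46 °C replicates 1, 2 or 3 or 54 °C replicates 1, 3 or 4. MT-CYB, the complex III subunit, rose by 1.25 ± 0.22. MT-CO1 and MT-ND4L had 3827 ± 776 against 5868 ± 533 CPM and 2013 ± 342 against 2902 ± 312 CPM (SD), with differences of 0.62 ± 0.22 (adjusted p = 0.283) and 0.54 ± 0.21 (adjusted p = 0.342). At 50 °C MT-CO1 reached 15620 ± 2686 CPM. MT-ND6, the only 1 of the 13 read from the light strand, had 49.66, 57.58, 37.22 and 59.15 CPM at 46 °C and 24.14, 20.93, 29.1 and 42.28 CPM at 54 °C, a difference of −0.76 ± 0.40 (adjusted p = 0.541). With nanoparticles alone MT-ND6 had 165.5 ± 75.1 CPM.

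**Figure D3:**
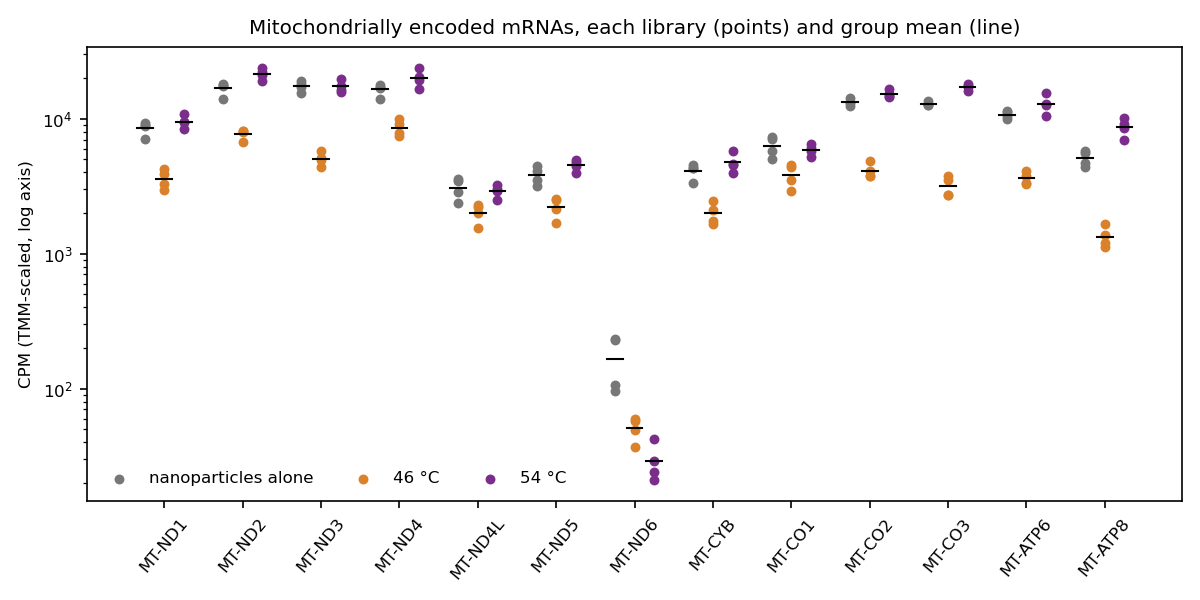
Level of the 13 mitochondrially encoded mRNAs (CPM, log axis) in each library with nanoparticles alone (grey), at 46 °C (orange) and at 54 °C (purple), with lines at group means. The 54 °C libraries stand above the 46 °C libraries for 12 of the 13, and MT-ND6 is the exception, lowest at 54 °C.

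Among listed nuclear-encoded subunits of the respiratory complexes, a minority were called, all lower and by small amounts. Of 51 tested, 9 fell and 0 rose, 44 had a negative difference, and the median was −0.17 against −0.0008 for all genes. ATP5MG, an ATP synthase subunit, had 1369, 1513, 1030 and 1129 CPM at 46 °C and 933.3, 968.9, 821.6 and 963.5 CPM at 54 °C, and fell by 0.44 ± 0.09 (adjusted p = 8.12e-04, edgeR). NDUFS8, a nuclear complex I subunit outside the list that was chosen after its values were seen, rose by 0.64 ± 0.15 (82.6 ± 10.3 to 128.7 ± 8.15 CPM, SD; adjusted p = 0.00763), a call lost without 46 °C replicate 1. COX7B, a cytochrome c oxidase subunit, fell by 0.53 ± 0.11 (adjusted p = 0.00129), with 253.9 to 448.5 CPM and 185.1 to 310 CPM. For ATP5MG the difference was −0.60 in replicates 1 and 2 and −0.27 in replicates 3 and 4. The count of 9 was 1 with no term for the replicate pair and 0 within replicates 3 and 4. It was 2 without 54 °C replicate 1, 3 without 46 °C replicate 2, 4 without 54 °C replicate 2 and 5 without 54 °C replicate 3.

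Ribosomal protein genes showed the same small size. Of 79, 4 fell and 1 rose, 61 had a negative difference, and the median was −0.14. RPL22 had 1210, 1373, 1041 and 1146 CPM at 46 °C and 923.5, 835.2, 921.8 and 923.5 CPM at 54 °C, and fell by 0.40 ± 0.09 (adjusted p = 0.00247, edgeR). Without 54 °C replicate 2 the call for RPL22 was lost. RPL34 fell by 0.36 ± 0.08, a call lost without 46 °C replicate 2 or 54 °C replicates 2 or 3. RPS2 fell by 0.31 ± 0.08 and RPL9 by 0.29 ± 0.08 (adjusted p = 0.0133 and 0.0469), and both calls were lost without 46 °C replicates 1 or 2 or 54 °C replicates 1 or 2, that of RPL9 also without 54 °C replicate 3. RPLP0, a stalk protein, rose by 0.29 ± 0.08 (adjusted p = 0.0344), a call lost with library totals and without 46 °C replicates 1, 2 or 3 or 54 °C replicates 3 or 4. The list's median was −0.22 within replicates 1 and 2 and 0.01 within replicates 3 and 4, and 28 genes were called lower in the former and 0 in the latter. The count of 4 was 17 without 54 °C replicate 4, 0 without 54 °C replicate 2, 1 without 46 °C replicate 2 and 2 without 54 °C replicates 1 or 3. With library totals it was 28.

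**Figure D4:**
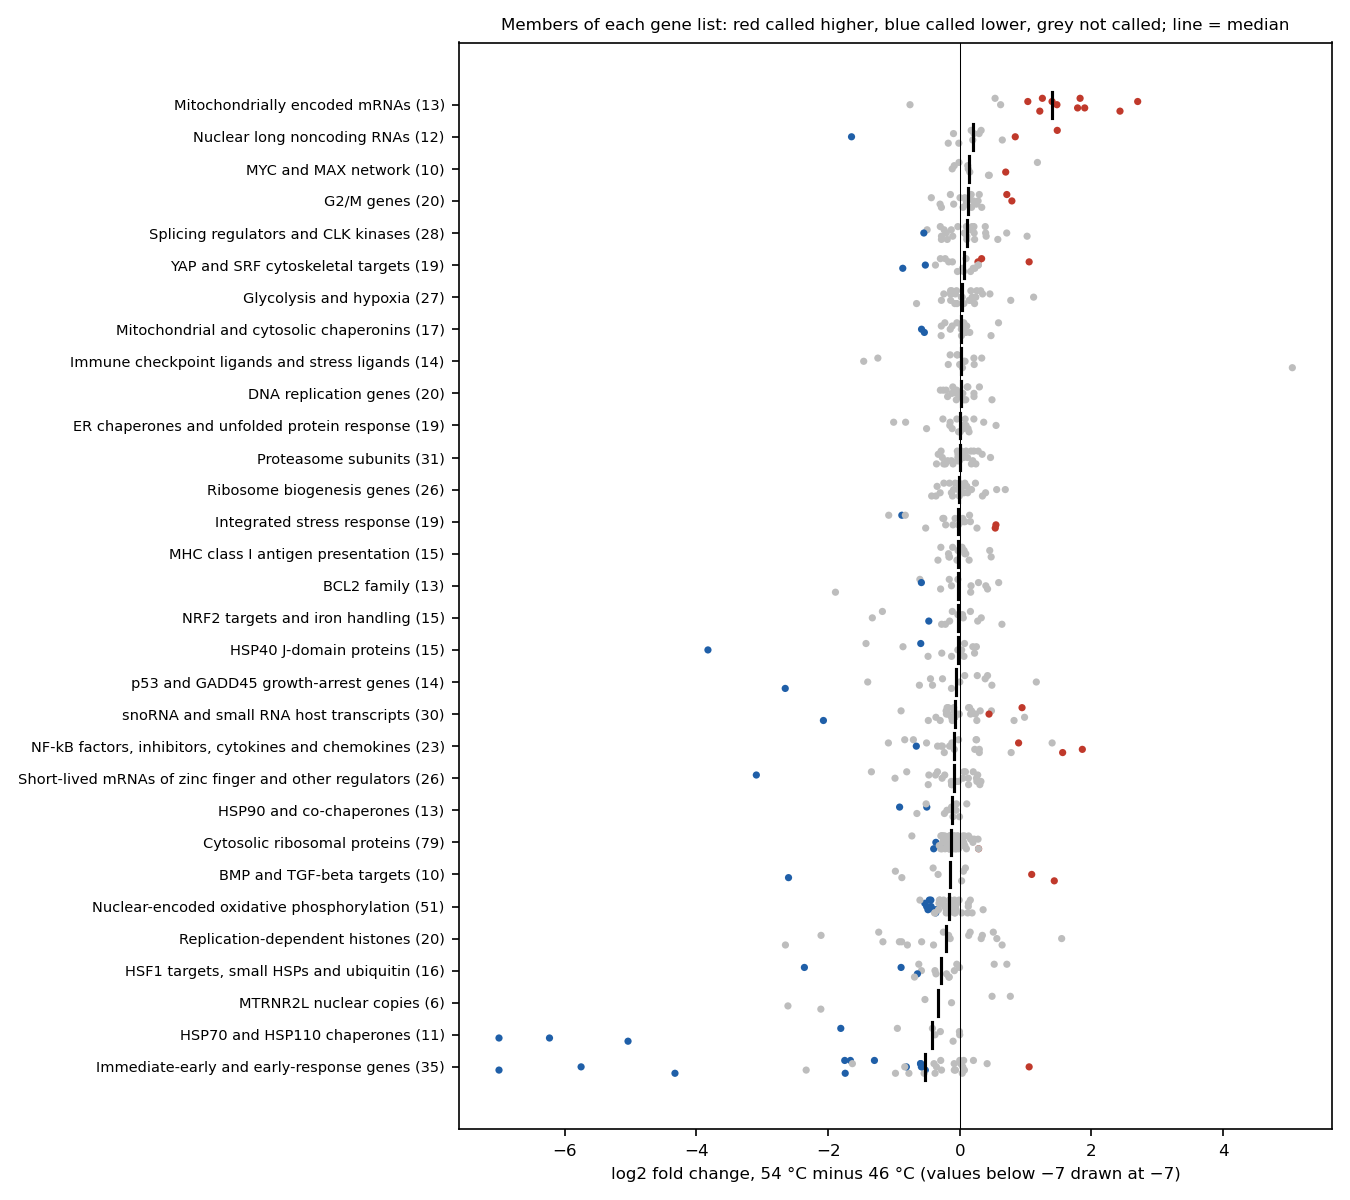
Log2 fold change (54 °C minus 46 °C) of every tested member of the 31 gene lists, ordered by list median (black line), with the number of tested members after each name. Red members were called higher, blue called lower and grey not called, and values under −7 are drawn at −7. Mitochondrially encoded mRNAs are at the top with a median of 1.40 and immediate-early genes at the bottom with −0.52.

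Few genes of the MYC and MAX network or of ribosome biogenesis were called. MAX, the binding partner of MYC proteins, had 77.85, 89.5, 85.8 and 98.02 CPM at 46 °C and 88.56, 82.19, 80.45 and 96.05 CPM at 54 °C, a difference of −0.01 ± 0.15 with an interval from −0.32 to 0.29. In the list of 10 network genes 1 rose, MLXIP, a glucose-sensing partner of MLX, by 0.70 ± 0.19 (adjusted p = 0.0324, edgeR). That call was lost with library totals and without 46 °C replicates 2, 3 or 4 or 54 °C replicates 1, 2 or 4. None of 26 ribosome biogenesis genes was called by edgeR, 7 had an unadjusted p under 0.05, the alternatives called 0 or 1, and the median was −0.007.

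Of 14 ligands of immune checkpoints and stress receptors, 0 were called by edgeR or by any alternative, DESeq2 and limma-voom included, and 2 had an unadjusted p under 0.05. CD274, which encodes PD-L1, had 23.39, 12.53, 12.15 and 17.94 CPM at 46 °C and 15.56, 12.18, 27.96 and 25.3 CPM at 54 °C. Its difference was 0.21 ± 0.32, with an interval from −0.43 to 0.86 that leaves room for changes either way. CD47, a signal against phagocytosis, had −0.18 ± 0.20 with an interval from −0.57 to 0.22. LGALS9, galectin-9, had a count in only 1 of 4 libraries at 46 °C and 0.8175 to 4.495 CPM at 54 °C (adjusted p = 0.218). B2M, the light chain of MHC class I, had 1185 ± 59 and 970.5 ± 71.4 CPM (SD) with no overlap, a difference of −0.29 ± 0.09 that missed the threshold (adjusted p = 0.0734). It passed in 5 alternatives, among them DESeq2, limma-voom and without 54 °C replicate 4. None of the 15 genes for antigen presentation was called by edgeR, B2M alone had an unadjusted p under 0.05, and their median was −0.03.

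The remaining lists held few calls. In G2/M genes 2 of 20 rose: CDC20, the activator of the anaphase-promoting complex, by 0.79 ± 0.15 (70.9 ± 10.2 to 122.9 ± 11.7 CPM, SD) and PLK1, a mitotic kinase, by 0.71 ± 0.15. With nanoparticles alone CDC20 had 112.1 ± 8.01 CPM. TXN, thioredoxin, fell by 0.47 ± 0.09 and was the only call among 15 NRF2 and iron genes. HMOX1, the heme-degrading enzyme, had 3.524, 9.845, 14.89 and 16.28 CPM at 46 °C and 3.199, 3.424, 6.377 and 6.159 CPM at 54 °C, a difference of −1.18 ± 0.58 (adjusted p = 0.446, edgeR). CIRBP and RBM3, RNA-binding proteins induced by cold, had differences of 0.21 ± 0.17 and −0.28 ± 0.11. DDHD1, a phospholipase, rose by 1.53 ± 0.40 at 6.03 and 17.3 CPM (adjusted p = 0.026), a call lost without 46 °C replicates 1, 3 or 4 or 54 °C replicates 1, 2 or 3.

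No gene was called among 27 glycolysis and hypoxia genes, 20 DNA replication genes, 20 replication-dependent histone genes and 6 nuclear copies of mitochondrial rRNA, with medians of 0.04, 0.01, −0.21 and −0.33. In edgeR, 4, 0, 2 and 2 of them had an unadjusted p under 0.05, and the alternatives, with DESeq2 and limma-voom, called 0 to 1, 0, 0 and 0 to 2. Histone mRNAs lack the poly(A) tail on which the assay primes. HIST1H1E had 14.95 to 29.47 CPM at 46 °C and 19.14 to 42.32 CPM at 54 °C. In the BCL2 family and among splicing regulators 1 gene each was called, MCL1 and TRA2B, both lower. TRA2B, a splicing activator, fell by 0.55 ± 0.12 (299 ± 14.2 to 204.7 ± 21.1 CPM, SD).

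The fit held a term for the replicate pair, 1 and 2 against 3 and 4, a division that is in no label and was found earlier in these data. All 160 called genes had the same sign of difference in both pairs, and 41 of them were also called within each pair alone, with 2 samples against 2. The 160 were called from both pairs together, so like signs are largely set by that choice and are no separate test. The test of the difference between the pairs called 6 genes (0.0494% of tested genes), none of which was among the 160. SMARCA2, a chromatin remodeller, had 0.55 within replicates 1 and 2 and −1.41 within replicates 3 and 4. NUP153, a nuclear pore protein, had 1.18 and −0.84. SNHG12, a small-nucleolar-RNA host, had 0.10 and 1.96, and ZFAS1, another such host, −0.43 and 0.30. RPL23 and RPS12 had −0.49 and −0.59 in the first pair and 0.15 and 0.004 in the other. Without 54 °C replicate 3 the count was 31, and without 54 °C replicate 2 or 4 it was 0. It was 1 without 46 °C replicate 3, 3 without 46 °C replicate 2 or 54 °C replicate 1, and 0 when the 54 °C libraries were thinned to the mean depth at 46 °C.

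**Figure D5:**
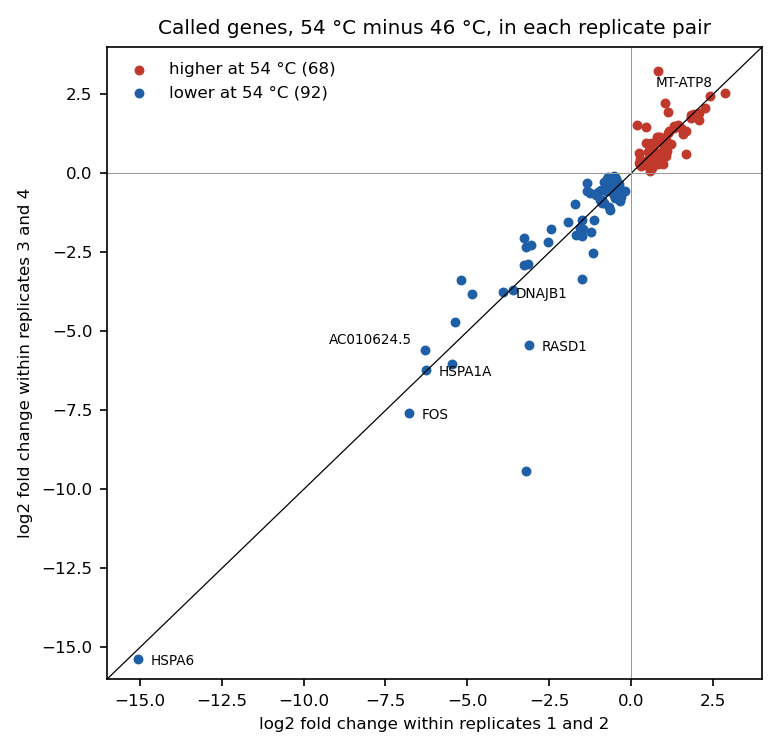
Log2 fold change (54 °C minus 46 °C) of the 160 called genes in replicates 1 and 2 (horizontal axis) and in replicates 3 and 4 (vertical axis), with the line of equal values. All 68 genes called higher lie in the upper right and all 92 called lower in the lower left. The genes were called from both pairs together, so like signs are largely set by that choice.

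Single-exon genes made up 8 of the 90 annotated lower genes (8.89%), HSPA6, HSPA1B, IER5 and JUN among them, against 3.14% of tested genes. They were 12 of the 68 higher genes (17.6%), and 10 of these were mitochondrial. Genes with a small RNA in their span on the same strand were 7.78% of the lower, 8.82% of the higher and 7.96% of all tested genes. RefSeq promoters were found for 66.2% of the higher genes, against 81.5% of the lower and 80.0% of the tested genes. Of the 68 higher genes 10 are mitochondrial. The promoter shares of the higher genes are therefore given with their counts, and no comparison rests on them.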

How the data were processed

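The authors deposited estimated counts per gene. The submitters' processing notes name STAR, Salmon and the build GRCh38; annotation, versions, strand setting and use of molecular identifiers: not given in the sources used here. Counts were rounded. edgeR 4.0.16 (R 4.3.3) was fitted with TMM scaling, a filter (count of 10, total of 15), robust quasi-likelihood dispersion, and terms for the 5 groups and the replicate pair over all 20 samples. P-values were adjusted over 12149 genes and called under 0.05. The method was tested on simulated data. The members and the 31 gene lists were chosen with earlier results of these data known. Named genes are the 10 largest rises and falls (mean of at least 10 CPM, no overlap), the 2 smallest p of each list with 2 calls, and fixed genes; AC007381.2 and RASD1 came in by this rule. BCL6, RGS2, JUNB, IER2, DUSP1, MCL1, SRF, CCN2, KLF6, IER3, ACTB, ACTG1, CSF3, FTX, further mitochondrial mRNAs, TXN, TRA2B, CSKMT, RPS2, RPL9, NDUFS8, ACTN1, DNAJB4, SLC7A5, RPLP0, LGALS9, HSP90AB1, HSPA4 and MLXIP were chosen after their values were seen. Some genes are not reported here. Gene positions are from GENCODE v29 (GRCh38), which the authors may not have used. The labels do not say that replicates are separate cultures, so p-values measure the spread between samples, which may be technical. Within groups, replicate counts gave chi-square values per gene from 7.27 to 23.1, above sampling noise, so none was a duplicate. PCR copies are not independent molecules, so limits from counts cover counting error only. Alternatives were fits with other terms or samples, DESeq2 and limma-voom, other scaling and filters, thinned 54 °C libraries, and leaving out each library.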

Additional observations from a re-analysis of the deposited data

Results flagged for a closer look

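In 196 sets of 4 values (each named gene at each temperature), 11 held a library whose gap to the others exceeded Dixon's 95% critical share of the range; chance flags about 1 set in 20. Among the genes that fell, FOS had 150.5 CPM in 46 °C replicate 4 against 71.44 to 81.1 CPM in the others, and EGR1 27.65 CPM in 54 °C replicate 2 against 13.96 to 16.15 CPM. BCL6 had 15.81 CPM in 54 °C replicate 4 against 9.385 to 10.47 CPM, and RPL22 had 835.2 CPM in 54 °C replicate 2 against 921.8 to 923.5 CPM. Among those that rose, MT-ND2 had 6690 CPM in 46 °C replicate 1 against 7987 to 8134 CPM, and NFKBIA 41.47 CPM in 46 °C replicate 2 against 74 to 80.71 CPM. Of genes not called, IER3 had 1164 CPM in 46 °C replicate 2 and 957.8 CPM in 54 °C replicate 4, each above the other 3 libraries of its group. HIST1H1E had 14.95 CPM in 46 °C replicate 4 against 27.82 to 29.47 CPM. RMRP had 61.76 CPM in 46 °C replicate 2 against 52.54 to 54.07 CPM, and LGALS9 0.3204 CPM in 46 °C replicate 1 against 0 in the other 3.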

How the results depend on the processing

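Counts of genes called higher and lower (68 and 92) moved by more than 1.5 times to 29 and 48 with no term for the replicate pair and to 28 and 46 within replicates 3 and 4. The lower count alone moved to 152 with DESeq2, 156 with limma-voom and 213 with library totals. Leaving out a library gave 42 to 67 higher and 61 to 113 lower genes, with 42 without 54 °C replicate 1 and 61 without 46 °C replicate 2. Thinning the 54 °C libraries to the mean depth at 46 °C gave 68 and 88. Genes whose difference differed between pairs (6) numbered 1 with the 8 samples alone, 26 with DESeq2, 14 with limma-voom, 12 with no filter, 0 after thinning, and 0 to 31 without a library. The replicate number as a replicate block gave 70 higher and 90 lower genes, 153 of them shared. In their deviations from the group mean, same-numbered samples correlated at 0.0222 to 0.0623. Samples of the same pair with other numbers correlated at 0.0182 to 0.0724, so these values do not decide whether same-numbered samples are paired. Of 76 called named genes, 35 kept the call in every alternative and 54 without each library; over 2038 results by gene and setting, 192 lost and 22 gained a call, and 0 reversed. The cause of these moves was not tested. A fit within a pair rests on 2 samples a group, and depth rose with temperature in all libraries.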
